A study of Mus musculus with 30 samples.

Results

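The genes described here are 38 genes of the autophagy machinery, chosen by symbol from what their proteins are known to do. The choice was made with earlier results of these data known. All 38 were found among the 36103 genes of the count table, and all 38 had enough reads to be tested in each tissue. They were measured by RNA-seq of polyA RNA in 4 tissues of male mice, and the question addressed was how the loss of myotubularin changes gene expression in each tissue. Myotubularin, encoded by Mtm1 on the X chromosome, removes a phosphate from the lipid PI3P, and its loss causes X-linked myotubular myopathy. The samples were gastrocnemius, a limb muscle, with 4 WT and 4 Mtm1-/y libraries, diaphragm with 4 WT and 3 Mtm1-/y libraries, heart with 4 of each genotype, and liver with 3 WT and 4 Mtm1-/y libraries. Mtm1-/y mice carried a knock-out of the gene in the whole body, and WT mice were their littermates. All were untreated males on a pure 129Pas background whose tissues were frozen at 5 weeks of age.

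Autophagy encloses cytoplasm in a double membrane, the autophagosome, and delivers it to the lysosome for breakdown. A kinase complex built on ULK1 or ULK2 starts the process, a lipid kinase complex makes PI3P on the forming membrane, and proteins that bind PI3P bring in lipid and a conjugation system that attaches the small Atg8 proteins to the membrane. Cargo receptors then tie their load to the Atg8 proteins, and the transcription factors TFEB and TFE3 drive genes of autophagy and of lysosomes. In skeletal muscle the process clears organelles and protein, and myotubularin acts on the same lipid that its early steps use.

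The 30 libraries held between 24873817 and 44289343 counted reads. Mtm1 was lower in Mtm1-/y libraries in each tissue with no overlap, from a mean of 19.5 to 4.65 CPM (read counts relative to library size, scaled within a tissue) in gastrocnemius, 22.4 to 4.68 in diaphragm, 27.1 to 4.51 in heart and 15.4 to 5.10 in liver. Only in liver did this fall miss the threshold of the main test (edgeR adjusted p = 0.37, DESeq2 adjusted p = 1.2e-06). The 8 skeletal myofibre markers summed to 121510 to 221661 CPM in gastrocnemius and 56573 to 89444 CPM in diaphragm, the 8 cardiomyocyte markers to 49377 to 72893 CPM in heart and the 8 hepatocyte markers to 128459 to 161850 CPM in liver, so the labelled tissues held their defining genes. In the gastrocnemius all 8 macrophage markers rose, with a summed level of 45.2 to 75.9 CPM in WT and 138 to 171 CPM in Mtm1-/y libraries. There 6 of 8 white adipocyte markers rose (232 to 351 CPM against 349 to 523 CPM) and 6 of 8 skeletal myofibre markers fell while 2 rose (188047 to 221661 CPM against 121510 to 131851 CPM). Of 6 fibroblast markers 3 rose (2913 to 8000 CPM against 3385 to 9880 CPM), and of 6 endothelial markers 3 fell (367 to 483 CPM against 269 to 350 CPM). Of 5 cardiomyocyte markers that could be tested 3 rose and 1 fell, with a summed level of 6300 to 7177 CPM in WT and 604 to 2317 CPM in Mtm1-/y libraries, and of 6 slow fibre markers 1 fell (1201 to 4031 CPM against 954 to 2590 CPM). These groups of markers moved together with each gastrocnemius result below, and their part in those results was not tested. By DESeq2 but not edgeR, 4 of 6 fibroblast markers were higher in Mtm1-/y diaphragm (2146 to 4639 CPM in WT against 4895 to 9892 CPM). In Mtm1-/y heart 6 of 8 white adipocyte markers were lower by DESeq2 but not edgeR (567 to 716 CPM in WT against 550 to 656 CPM). The part of these shifts in the diaphragm and heart results was not tested either. In bulk tissue, fewer cells of a type and less RNA per cell cannot be told apart. The diaphragm libraries differed in liver RNA. Alb, the serum albumin made by hepatocytes, stood at 26579, 17700, 294 and 19262 CPM in WT replicates 1 to 4 and at 1685, 33827 and 565 CPM in Mtm1-/y replicates 1, 2 and 4.

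Promoter sequences were examined because TFEB and TFE3, which are among the 38 genes, bind the E-box CACGTG. RefSeq promoters of build GRCm38.p6, from 250 bases before to 50 bases after the start site, were found for 33 of the 38 genes, and Wdr45b, Rb1cc1, Map1lc3a, Atg16l1 and Atg12 had no entry. The E-box CACGTG, which reads the same on both strands, stood in 6 of the 33 promoters (18.2%), those of Atg14, Atg3, Atg5, Atg7, Bnip3 and Rubcn, against 8.09% of all genes with a promoter. Its longer form TCACGTGA, which contains the E-box and is the core of the CLEAR element, occurred in the Atg3 promoter alone among these genes (3.03%, against 1.12% of all genes). The full CLEAR element, searched only as an exact sequence longer than this core, was found in 0 of the 33 promoters (0.37% of all genes). The forkhead motif GTAAACA, searched on both strands, was found in 0 (4.05% of all genes). The median GC content of the promoters was 60% for these genes and 52.7% for all promoters, and its part in the E-box share was not tested.

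The 250 bases before the start site are shown for the genes on which the results turn most, Ulk2 and Atg9a, which fell in the gastrocnemius, and Gabarapl1, which rose there and differed most between WT tissues. The same bases of Atg3 and Bnip3 are shown as examples of promoters with an E-box. Capitals mark the E-box and its longer form, and each sequence reads 5′ to 3′ towards the gene. Ulk2 is at chr11:61855093-61855342 on the minus strand, Atg9a at chr1:75192011-75192260 on the minus strand, Gabarapl1 at chr6:129532942-129533191 on the plus strand, Atg3 at chr16:45158579-45158828 on the plus strand and Bnip3 at chr7:138909507-138909756 on the minus strand.
Ulk2: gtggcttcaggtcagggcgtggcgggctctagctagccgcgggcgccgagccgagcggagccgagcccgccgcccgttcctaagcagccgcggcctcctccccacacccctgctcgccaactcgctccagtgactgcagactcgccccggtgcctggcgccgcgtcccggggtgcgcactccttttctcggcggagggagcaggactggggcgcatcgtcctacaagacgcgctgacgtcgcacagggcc
Atg9a: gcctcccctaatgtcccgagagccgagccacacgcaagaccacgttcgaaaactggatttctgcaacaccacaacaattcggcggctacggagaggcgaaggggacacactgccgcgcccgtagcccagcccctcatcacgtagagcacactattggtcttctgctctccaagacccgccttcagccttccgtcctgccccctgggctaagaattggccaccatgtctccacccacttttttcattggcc
Gabarapl1: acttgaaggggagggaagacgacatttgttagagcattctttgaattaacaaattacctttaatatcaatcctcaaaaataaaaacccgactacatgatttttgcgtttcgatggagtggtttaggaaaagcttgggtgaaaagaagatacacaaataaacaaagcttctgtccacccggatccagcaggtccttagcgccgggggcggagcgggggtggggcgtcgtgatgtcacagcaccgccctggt
Atg3: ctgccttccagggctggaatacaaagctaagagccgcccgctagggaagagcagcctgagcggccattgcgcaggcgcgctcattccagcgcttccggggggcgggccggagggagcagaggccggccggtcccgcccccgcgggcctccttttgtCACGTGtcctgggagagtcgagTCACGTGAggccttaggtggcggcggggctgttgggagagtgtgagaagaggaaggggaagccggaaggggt
Bnip3: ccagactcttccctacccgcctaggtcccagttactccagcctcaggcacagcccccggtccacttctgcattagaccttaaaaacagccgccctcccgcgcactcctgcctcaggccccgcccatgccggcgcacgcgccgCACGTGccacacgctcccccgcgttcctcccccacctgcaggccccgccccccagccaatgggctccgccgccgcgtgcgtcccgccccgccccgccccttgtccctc

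The promoters of Ulk2, Atg9a and Gabarapl1 held none of the motifs searched, which says only that these letters are not in this window. In the Atg3 promoter E-boxes began 94 and 71 bases before the start site, and in that of Bnip3 1 began 108 bases before it. Of the 6 genes with an E-box, none passed the test for genotype in any tissue. In the gastrocnemius Atg7 had the smallest p among them, with a log2 fold change (log2FC) of 0.22 (SE 0.08, edgeR adjusted p = 0.069).

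In the gastrocnemius 10 of the 38 genes differed between genotypes, 5 higher and 5 lower in Mtm1-/y mice. The higher genes were Gabarap, Gabarapl1 and Map1lc3a of the Atg8 family, Wipi1 and Tfe3, and the lower genes were Ulk2, Rb1cc1, Atg9a, Atg4d and Optn. A gene was called at an edgeR adjusted p under 0.05 over all genes tested. Of all 15456 genes tested in this muscle 14.1% were called higher and 14.9% lower, so 5 of 38 in each direction was close to the background share. The changes were moderate, with Ulk2 showing the largest at 0.606 of its WT level, and none of the 38 passed the stricter rule that also asks for a 2-fold change, which 6.63% of all genes passed. The median log2FC was -0.02 over these genes and 0.02 over all genes, and the median size of the change regardless of direction was 0.20 and 0.25. All 10 called genes were without overlap between the genotypes, as were 15 of the 38 in all, against 30.7% of all genes. DESeq2 called 12 of the 38, the same 10 with Map1lc3b and Atg4c, against 25.7% of all genes. Without WT replicate 1, 3 or 4 the number called higher was 2, 3 or 3. Without any single library the number called lower stayed between 5 and 7. The share of all genes called in these runs was not counted.

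**Figure D1:**
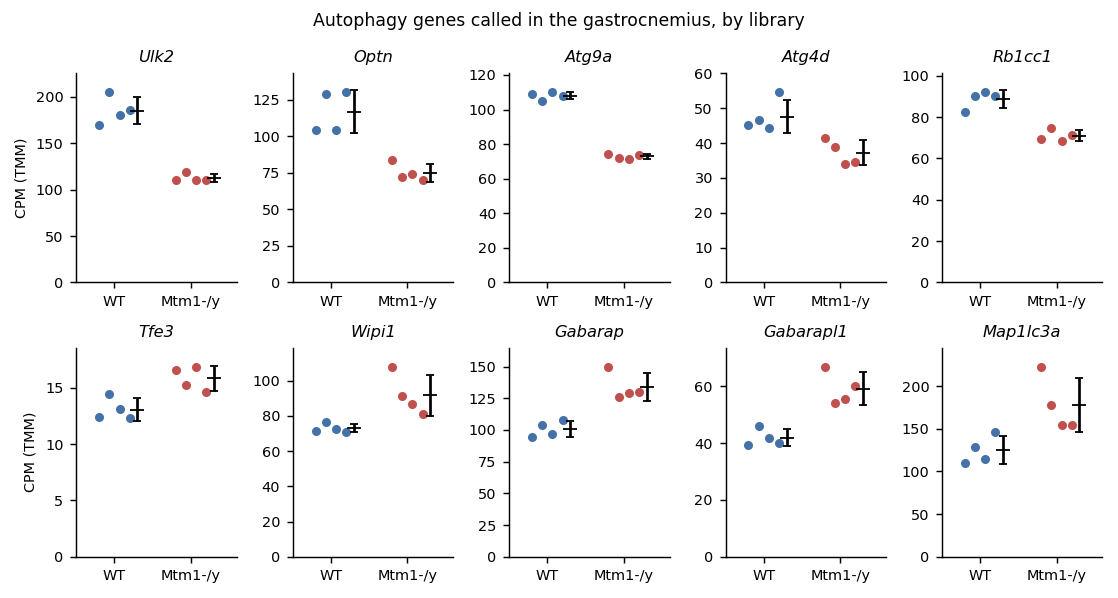
Level in CPM (scaled with TMM, linear axis from 0) of the 10 autophagy genes called in the gastrocnemius, with a point for each of the 4 WT and 4 Mtm1-/y libraries and the mean with SD beside them. The 5 genes that fell are Ulk2, Optn, Atg9a, Atg4d and Rb1cc1, and in all 10 panels the genotypes do not overlap.

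The kinase complex that starts autophagy was lower in 2 of its 5 genes, with 0 higher, where 14.9% of all genes were called lower. Ulk2, a kinase of the complex encoded at chromosome 11:61775649-61855073 on the minus strand, stood at 170, 205, 180 and 186 CPM in WT replicates 1 to 4 and at 110, 119, 110 and 110 CPM in Mtm1-/y replicates 1 to 4. Every Mtm1-/y library lay well under the lowest WT library, and the mean fell from 185 ± 14.5 (SD, n = 4) to 112 ± 4.51 CPM (SD, n = 4), a log2FC of -0.72 (SE 0.07, edgeR adjusted p = 0.00019). Its paralog Ulk1 stood at 80.7 ± 3.97 and 73.3 ± 3.17 CPM and did not pass (log2FC -0.14, SE 0.06, adjusted p = 0.12). Per kb of exon, Ulk2 made up 67.6% ± 1.39 (SD, n = 4) of the transcripts of both kinases in WT and 58.2% ± 1.41 (SD, n = 4) in Mtm1-/y gastrocnemius. Rb1cc1, which encodes the scaffold FIP200 of the complex, measured 82.6, 90.2, 92.0 and 90.0 CPM in WT and 69.5, 74.7, 68.3 and 71.4 CPM in Mtm1-/y libraries. The groups did not overlap, and the fall was 0.32 on the log2 scale (SE 0.06, adjusted p = 0.0037). Atg101 (log2FC -0.28, SE 0.13, adjusted p = 0.12) and Atg13 (-0.00, SE 0.07, adjusted p = 0.97), partners of the kinases, did not pass.

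Atg9a encodes a membrane protein that moves lipid between the leaflets of the growing membrane and lies at chromosome 1:75180860-75192196 on the minus strand. It stood at 109, 105, 110 and 108 CPM in WT and at 74.3, 71.8, 71.4 and 73.9 CPM in Mtm1-/y libraries. The libraries of each genotype were close to each other and far from the other genotype, with a log2FC of -0.57 (SE 0.05, edgeR adjusted p = 0.00015). Of the stretches of 50 bases in its exons, 30.5% also occur in exons of other genes, and it overlaps Ankzf1 on the other strand. Reads from these parts may be missing from its count. Wipi1, whose protein binds PI3P, was higher at 108, 91.2, 86.5 and 80.9 CPM in Mtm1-/y libraries against 71.5, 76.3, 72.8 and 71.1 CPM in WT. Replicate 1 was the highest and the spread was wider than in WT, and the rise was 0.33 on the log2 scale (SE 0.09, adjusted p = 0.02). Wipi1 missed the threshold without WT replicate 1 (adjusted p = 0.052) and without WT replicate 4 (adjusted p = 0.056). The other PI3P readers did not pass, with a log2FC of -0.01 for Wipi2, 0.27 for Wdr45 (SE 0.12, adjusted p = 0.13) and 0.08 for Wdr45b, nor did the lipid transfer genes Atg2a (-0.20, adjusted p = 0.098) and Atg2b (0.10, adjusted p = 0.2). None of the partners of the lipid kinase complex passed, with a log2FC of 0.19 for Atg14, which directs the complex to autophagy, 0.05 for Uvrag and -0.15 for Rubcn, an inhibitor.

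Atg9b, the paralog of Atg9a, was near the floor of detection in 7 of the 8 gastrocnemius libraries and high in 1. It measured 0.223, 0.404, 0.449 and 0.349 CPM in WT and 0.360, 0.242, 18.0 and 0.512 CPM in Mtm1-/y libraries. The log2FC of 3.74 (SE 1.39, edgeR adjusted p = 0.068) rested on Mtm1-/y replicate 3 and was 0.09 without it. In the same library the hair follicle genes Tchh, Krt71 and Krt25, chosen after their values were seen, stood at 634, 434 and 191 CPM, while no other gastrocnemius library passed 0.19 CPM for any of them. Nos3, which overlaps Atg9b on the other strand, stood at 18.3 CPM there and at 13.5 to 23.6 CPM in the other libraries. The part of hair follicle RNA in the Atg9b value was not tested.

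Of the 11 genes for conjugating Atg8 and Atg12 proteins, Atg4d alone was called, and it was lower. ATG4 proteases trim Atg8 proteins before conjugation and release them afterwards. Atg4d stood at 45.2, 46.5, 44.2 and 54.6 CPM in WT and at 41.4, 39.0, 34.0 and 34.7 CPM in Mtm1-/y libraries. The gap between the lowest WT and the highest Mtm1-/y library was small, and the log2FC was -0.35 (SE 0.09, edgeR adjusted p = 0.017). The call was lost without Mtm1-/y replicate 4 (adjusted p = 0.052), and 14.6% of its 50-base stretches are shared with Kri1 on the other strand. Atg4c had a similar estimate with wider spread, at 8.04, 12.5, 9.59 and 9.67 CPM in WT and 8.41, 7.44, 7.03 and 7.54 CPM in Mtm1-/y libraries (log2FC -0.39, SE 0.13, edgeR adjusted p = 0.055, DESeq2 adjusted p = 0.048). Here Mtm1-/y replicate 1 lay above WT replicate 1, so the groups overlapped. The enzymes of the conjugation cascade, Atg7 (0.22, adjusted p = 0.069), Atg3 (-0.02, adjusted p = 0.85) and Atg10 (-0.25, adjusted p = 0.13), were not called. Neither was Atg5 (0.09, adjusted p = 0.37), nor were Atg12, Atg16l1, Atg16l2, Atg4a and Atg4b, whose log2FC ranged from -0.14 to 0.09.

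In the Atg8 family 3 of 5 genes rose and 0 fell, where 14.1% of all genes were called higher and 14.9% lower. This was the group with the highest share of calls, but the groups hold only 2 to 11 genes. The share was seen in the values and not tested. Gabarapl1, at chromosome 6:129533160-129542346 on the plus strand, stood at 39.4, 46.1, 41.9 and 40.2 CPM in WT and at 67.0, 54.1, 55.6 and 60.2 CPM in Mtm1-/y libraries. Every Mtm1-/y library was above every WT library, and the log2FC was 0.50 (SE 0.08, edgeR adjusted p = 0.0022). With the spread estimated over all 30 libraries the estimate was 0.49 but the adjusted p was 0.28. Gabarap, at chromosome 11:69991143-69994951 on the plus strand, measured 94.8, 104, 97.0 and 108 CPM in WT and 150, 126, 129 and 130 CPM in Mtm1-/y libraries. Replicate 1 was the highest of the Mtm1-/y libraries, as for Gabarapl1, and the log2FC was 0.40 (SE 0.08, adjusted p = 0.0035). Map1lc3a, which encodes the Atg8 protein LC3A and lies at chromosome 2:155276297-155278073 on the plus strand, was at 110, 129, 115 and 146 CPM in WT and at 223, 178, 155 and 155 CPM in Mtm1-/y libraries. The genotypes were apart, with replicate 1 again the highest, and the log2FC was 0.51 (SE 0.13, adjusted p = 0.017). Without WT replicate 1 or 3 its adjusted p was 0.052 or 0.051.

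Map1lc3b, which encodes the Atg8 protein LC3B that is most often used as a marker of autophagosomes, did not share this rise. It stood at 114, 126, 121 and 129 CPM in WT and at 101, 104, 109 and 116 CPM in Mtm1-/y libraries, so that only Mtm1-/y replicate 4 exceeded a WT library. The log2FC was -0.19 (SE 0.07, edgeR adjusted p = 0.056, DESeq2 adjusted p = 0.029). Gabarapl2 stood at 12.8 ± 1.17 and 12.4 ± 0.435 CPM (SD, n = 4 each, log2FC -0.05). Summed per kb of exon, the 5 genes came to 241 ± 21.0 CPM per kb in WT and 319 ± 38.0 in Mtm1-/y gastrocnemius (SD, n = 4 each). Map1lc3b fell from 9.84% ± 0.364 to 6.58% ± 1.02 of that sum, while Gabarap held 31.0% and 31.1% and Map1lc3a 46.4% ± 1.88 and 49.8% ± 3.22.

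**Figure D2:**
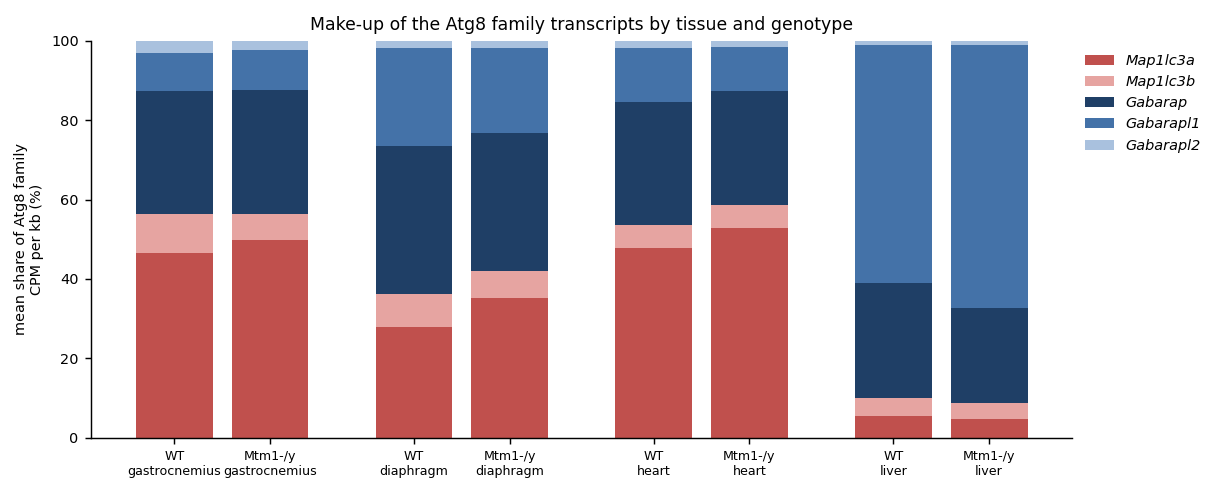
Mean share, in percent, that each of the 5 Atg8 genes takes of their summed CPM per kb of exon, as stacked bars for WT and Mtm1-/y libraries of each tissue. Map1lc3a holds the largest share in gastrocnemius (46.4% in WT) and heart (47.9%), and Gabarapl1 does so in liver (60.0%).

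Optn was the only cargo receptor called, and it fell. Optineurin links ubiquitin-marked cargo such as damaged mitochondria to Atg8 proteins, and its gene lies at chromosome 2:5020642-5064051 on the minus strand. It measured 104, 129, 104 and 130 CPM in WT and 83.6, 72.0, 74.0 and 69.7 CPM in Mtm1-/y libraries. WT values fell into a lower and a higher pair, both above every Mtm1-/y library, and the log2FC was -0.64 (SE 0.10, edgeR adjusted p = 0.0014). Sqstm1, which encodes the receptor p62 and was the most abundant member in this muscle, stood at 431, 541, 400 and 488 CPM in WT and at 647, 566, 493 and 533 CPM in Mtm1-/y libraries. The groups overlapped and the log2FC of 0.27 did not pass (SE 0.11, adjusted p = 0.1). Nbr1, a relative of p62 (log2FC 0.08, adjusted p = 0.3), and Bnip3, a receptor on mitochondria (log2FC -0.17, adjusted p = 0.091), were not called. The Bnip3 libraries were without overlap at 60.9 to 71.7 CPM in WT and 55.0 to 60.5 CPM in Mtm1-/y mice, but 47.2% of its 50-base stretches also occur in other genes and pseudogenes.

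Tfe3 rose slightly and Tfeb was not called. Tfe3 stood at 12.4, 14.5, 13.1 and 12.3 CPM in WT and at 16.6, 15.3, 16.9 and 14.6 CPM in Mtm1-/y libraries. The highest WT and the lowest Mtm1-/y library were almost level, the log2FC was 0.28 (SE 0.08, edgeR adjusted p = 0.032), and the call was lost in 7 of 14 alternatives, among them leaving out WT replicate 1, 3 or 4 or Mtm1-/y replicate 1 or 3. Tfeb measured 46.3, 51.3, 40.2 and 61.8 CPM in WT and 49.3, 41.1, 33.8 and 44.5 CPM in Mtm1-/y libraries. The groups overlapped (log2FC -0.24, SE 0.15, adjusted p = 0.24).

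Around these genes, 44 of 45 further pathway genes could be tested in the gastrocnemius, and 2 were higher and 8 lower, where 14.1% and 14.9% of all genes were, so that the lower genes were close to the background share. The higher genes were Prkaa1, a catalytic subunit of the energy sensor AMPK (log2FC 0.44, edgeR adjusted p = 0.011), and Tbk1, a kinase that phosphorylates optineurin (0.32, adjusted p = 0.017). The other catalytic subunit of AMPK, Prkaa2, was lower (-0.49, adjusted p = 0.00066), as was the transcription factor Foxo4 (-0.60, adjusted p = 0.0013). For membrane sources and fusion, Rab7 (-0.51, adjusted p = 0.0013), the fusion protein gene Stx17 (-0.42, adjusted p = 0.0042) and Vmp1 (-0.24, adjusted p = 0.02) fell. Among further receptors and their regulators, Pink1 (-0.42, adjusted p = 0.0071) and Fundc1 (-0.42, adjusted p = 0.0086), genes of mitophagy, fell. The median log2FC of the 44 genes was -0.08. In diaphragm, heart and liver 0 of these further genes were called by edgeR or DESeq2, and 1, 4 and 5 had an unadjusted edgeR p under 0.05, against 10.8%, 8.88% and 4.24% of all genes.

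In the diaphragm 0 of the 38 genes were called, where 0.0119% of all 16796 genes were, and DESeq2 also called 0 (2.37% of all genes). At an unadjusted p under 0.05 there were 2 of 38, against 10.8% of all genes. Map1lc3a was at 91.8, 110, 119 and 105 CPM in WT replicates 1 to 4 and at 128, 146 and 203 CPM in Mtm1-/y replicates 1, 2 and 4. Every Mtm1-/y library was above WT, as in the gastrocnemius, but the log2FC of 0.58 did not pass (SE 0.18, edgeR adjusted p = 0.35). Atg9b was low throughout, at 0.816 to 1.38 CPM in WT and 0.455 to 0.626 CPM in Mtm1-/y libraries (log2FC -0.98, SE 0.26, adjusted p = 0.29). Among the 38 genes 5 were without overlap, Map1lc3a, Atg2b and Atg12 higher and Atg9b and Tfeb lower, against 9.97% of all genes. The precision was lower here than in the other tissues, with a typical variation between replicates of 0.394 as a coefficient of variation, against 0.171 in gastrocnemius.

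Gabarapl1 showed the widest spread in the diaphragm, and it was high in the libraries rich in Alb. It stood at 174, 144, 86.0 and 233 CPM in WT and at 110, 291 and 95.4 CPM in Mtm1-/y libraries, and liver libraries held 389 to 983 CPM. The 3 libraries with Alb at or under 10000 CPM, WT replicate 3 and Mtm1-/y replicates 1 and 4, were the 3 lowest for Gabarapl1. Its log2FC for genotype was 0.06 (SE 0.48) over all 7 libraries and 0.26 in the 3 libraries low in Alb. That division was chosen after seeing the data and sets 1 WT library against 2 Mtm1-/y libraries, too few to bear on a call, so its values are given without a test. Ulk2 and Optn, which fell in the gastrocnemius, had a log2FC of -0.22 and -0.13 over all diaphragm libraries and -0.49 and -0.33 in those low in Alb.

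**Figure D3:**
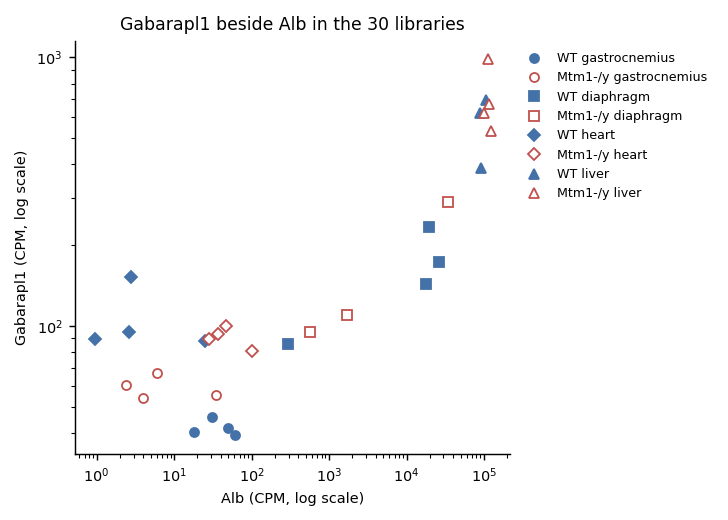
Gabarapl1 against Alb in each of the 30 libraries, both in CPM on log axes, with a shape for each tissue, filled for WT and open for Mtm1-/y. The 4 diaphragm libraries rich in Alb (17700 to 33827 CPM) hold 144 to 291 CPM of Gabarapl1, and the other 3 hold 86.0 to 110 CPM.

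In the heart 0 of the 38 genes were called, where 0.00656% of 15238 genes were, and DESeq2 called 0 (0.453% of all genes). At an unadjusted p under 0.05 there were 4 of 38 against 8.88% of all genes: Tfeb (log2FC -0.42, SE 0.14), Atg9a (0.22, SE 0.08), Atg101 (-0.29, SE 0.11) and Map1lc3a (0.24, SE 0.09), each with an edgeR adjusted p of 0.55. Tfeb stood at 21.3, 19.2, 18.2 and 25.7 CPM in WT and at 15.6, 18.2, 16.4 and 13.0 CPM in Mtm1-/y hearts. The lowest WT and the highest Mtm1-/y heart met at the same level. Map1lc3b was the only member without overlap (4.26% of all genes), at 126, 127, 128 and 124 CPM in WT and 134, 142, 130 and 146 CPM in Mtm1-/y hearts (log2FC 0.13, SE 0.07, adjusted p = 0.55). In the liver 0 of the 38 genes were called, as for 0% of 14305 genes tested, and 0 had an unadjusted p under 0.05 (4.24% of all genes). DESeq2 called 0 of them in liver (0.163% of all genes). The largest estimates were those of Atg9b (0.64, SE 0.61) and Atg16l2 (-0.44, SE 0.24), each with an adjusted p of 0.97.

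**Figure D4:**
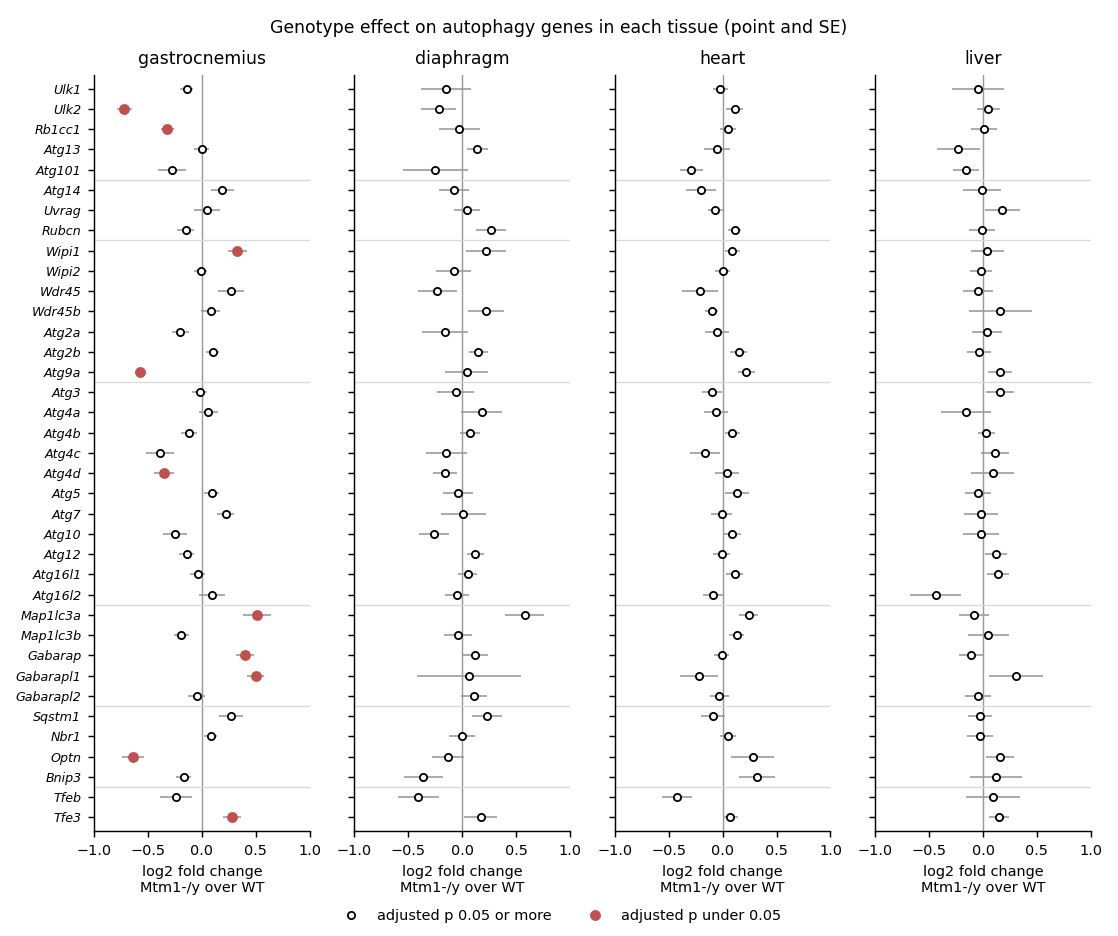
Log2 fold change (Mtm1-/y over WT) with its SE for 37 autophagy genes, ordered by role, in each of the 4 tissues, with Atg9b left out because its gastrocnemius value rests on 1 library. Filled red points mark genes called at an edgeR adjusted p under 0.05, which number 10 in gastrocnemius and 0 in the other tissues.

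Whether the genotype effect differed between tissues was tested gene by gene in fits of both tissues together. Between heart and gastrocnemius 7 of the 38 genes differed, against 19.8% of all 16627 genes. The difference, heart minus gastrocnemius, was positive for Ulk2 (0.85, SE 0.10, edgeR adjusted p = 0.00016), Atg9a (0.81, SE 0.09, adjusted p = 8.5e-05), Optn (0.95, SE 0.25, adjusted p = 0.016), Rb1cc1 (0.39, SE 0.09, adjusted p = 0.01) and Map1lc3b (0.34, SE 0.09, adjusted p = 0.017). These are genes that were lower in Mtm1-/y gastrocnemius, or had a negative estimate there in the case of Map1lc3b, and had a positive estimate in heart that was not called. It was negative for Gabarap (-0.40, SE 0.10, adjusted p = 0.012) and Gabarapl1 (-0.70, SE 0.21, adjusted p = 0.027), and the call for Gabarapl1 was lost without WT or Mtm1-/y gastrocnemius replicate 1 (adjusted p = 0.051 and 0.056) or Mtm1-/y heart replicate 1 (0.053). In WT heart replicate 4 Gabarapl1 stood at 152 CPM, against 88.4 to 94.8 CPM in the other WT hearts. In that library the slow fibre markers summed to 7414 CPM, against 14053 to 16768 CPM in the other WT hearts. Its cardiomyocyte markers (72893 CPM, others 49377 to 56304) and fibroblast markers (4508 CPM, others 1900 to 2942) were the highest of the WT hearts. The part of this library was not tested further. Map1lc3a was not among the genes that differed (-0.25, SE 0.17, adjusted p = 0.31). Between liver and gastrocnemius 4 of 38 differed, against 6.34% of all genes: Ulk2 (0.80, SE 0.12, adjusted p = 0.0031), Atg9a (0.76, SE 0.12, adjusted p = 0.0032) and Optn (0.83, SE 0.17, adjusted p = 0.011) were positive and Gabarap negative (-0.49, SE 0.13, adjusted p = 0.04, lost in 13 of 19 alternatives). Between diaphragm and gastrocnemius 0 of 38 differed, against 0.280% of all genes, and the smallest adjusted p were 0.23 for Atg9a (0.60) and 0.24 for Ulk2 (0.49). The gastrocnemius libraries are shared by these 3 comparisons.

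The levels of the genes in the 4 WT tissues, in CPM per kb of exon so that genes can be set side by side, spanned a wide range. They are not on the scale used within a tissue above, so they do not match the sums per kb given there. Sqstm1 was the most abundant in gastrocnemius (181 ± 24.9, SD, n = 4), Gabarap in diaphragm (110 ± 11.3, SD, n = 4), Map1lc3a in heart (169 ± 16.3, SD, n = 4) and Gabarapl1 in liver (381 ± 108, SD, n = 3). Atg9b was the least abundant in every tissue, at means of 0.0795 to 0.271. By mean level, 22 of the 38 genes were highest in liver, 11 in gastrocnemius, 4 in heart and 1, Bnip3, in diaphragm. The 11 highest in gastrocnemius were Ulk2, Rb1cc1, Rubcn, Atg9a, Atg4a, Atg4d, Atg12, Gabarapl2, Sqstm1, Optn and Tfeb. All 5 genes that fell in Mtm1-/y gastrocnemius are among these 11, and none of the 5 that rose is. Both observations rest on the same WT gastrocnemius libraries, which favours such a relation, and it was seen in the values and not tested. How often it holds over all genes called lower or higher was not counted.

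**Figure D5:**
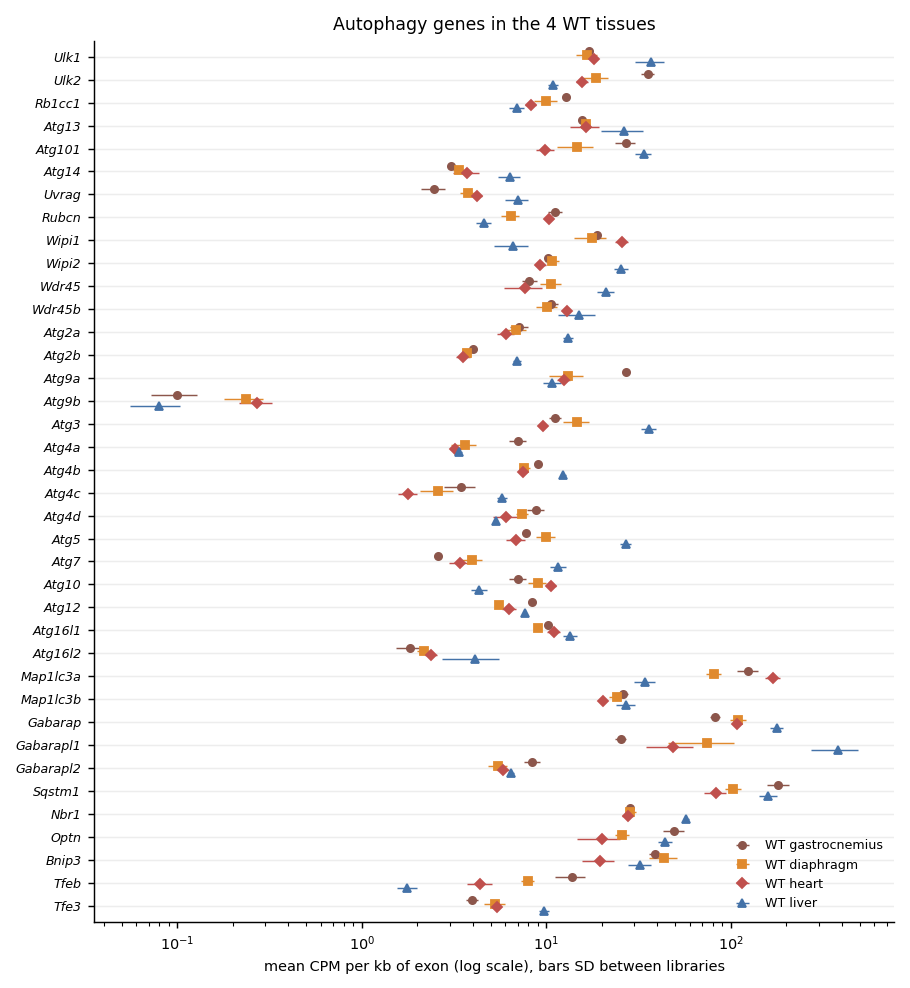
Mean level of the 38 genes in the 4 WT tissues, in CPM per kb of exon on a log axis, with bars for the SD between libraries (n = 4, and 3 for liver). Gabarapl1 runs from 25.3 in gastrocnemius to 381 in liver, and Tfeb from 13.7 in gastrocnemius down to 1.77 in liver.

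Against WT gastrocnemius, WT liver had 20 of the 38 genes higher and 11 lower, where 37.4% of all genes were higher and 42.1% lower. The median log2FC was 0.43 for the 38 genes and -0.10 for all. Gabarapl1 was 15.0-fold higher in liver, with 259 to 465 CPM per kb against 23.7 to 27.9 (log2FC 3.91, SE 0.32, edgeR adjusted p = 4.9e-08). The conjugation genes Atg7 (log2FC 2.16, adjusted p = 1.7e-09), Atg5 (1.80, adjusted p = 2.3e-09) and Atg3 (1.68, adjusted p = 1.4e-08) were also higher. The fellow factors Tfeb and Tfe3 went apart, with Tfeb 7.71-fold lower (log2FC -2.95, SE 0.17, adjusted p = 1.5e-09) and Tfe3 2.46-fold higher in liver (1.30, SE 0.10, adjusted p = 3.9e-08). The same was true of the kinases Ulk2 (-1.70, SE 0.12, adjusted p = 1.8e-08) and Ulk1 (1.12, SE 0.12, adjusted p = 1.0e-06), so that Ulk2 made up 23.1% ± 2.61 (SD, n = 3) of the transcripts of both in WT liver. Map1lc3a was 3.60-fold and Wipi1 2.85-fold lower in liver. Levels of Sqstm1 (160 ± 18.4 CPM per kb in liver, log2FC -0.18, adjusted p = 0.26), Optn (-0.16) and Map1lc3b (0.05) were not called different from gastrocnemius.

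WT heart had 10 of the 38 genes higher and 16 lower than WT gastrocnemius, where 32.6% and 28.7% of all genes were. Tfeb was 3.12-fold lower (log2FC -1.64, SE 0.14, edgeR adjusted p = 2.4e-07), and Atg101 (-1.45), Optn (-1.30), Ulk2 (-1.17), Atg9a (-1.13), Atg4a (-1.13) and Sqstm1 (-1.13) were also lower by more than 2-fold. Map1lc3a was higher in heart (0.45, SE 0.12, adjusted p = 0.0048), and the largest rise was that of the scarce Atg9b (1.43, SE 0.28, adjusted p = 0.00045). WT diaphragm had 10 genes higher and 15 lower than WT gastrocnemius, where 30.6% and 23.8% of all genes were. A further comparison, chosen after seeing the data, let WT replicate 3, the library low in Alb, stand alone for the diaphragm. A single library is too few to bear on a call, so its estimates are given without a test. Rb1cc1 (-0.36 over all libraries, -0.01 with replicate 3 alone) and Atg3 (0.38 and 0.05) had smaller estimates in it. Ulk2 (-0.93 over all libraries, -0.59 with replicate 3 alone), Atg9a (-1.05 and -0.74), Optn (-0.94 and -0.86) and Sqstm1 (-0.82 and -0.90) had clearly negative estimates either way. Gabarapl1 stood at 82.0, 68.0, 39.3 and 109 CPM per kb in WT diaphragm replicates 1 to 4, with replicate 3 nearest to the gastrocnemius range of 23.7 to 27.9. Its difference was 1.56 over all libraries (SE 0.28, adjusted p = 0.00035) and 0.70 with replicate 3 alone, and the part of liver RNA in it was not tested further.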

How the data were processed

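RNA was extracted from whole tissue, and per the labels polyA libraries were made with a stranded kit. Reads were trimmed with cutadapt 1.10, mapped to mm10 with STAR 2.5.3a and counted per gene with HTSeq 0.6.1p1 on Ensembl 96. The deposited values are raw counts made by the authors in this way. Per the study's methods only reads with a unique alignment and an unambiguous gene were counted. Whether counting used strand is not given in the sources used here, so whether reads in overlapping genes were counted or left out is not known. The table held 36103 genes in 30 libraries of 24873817 to 44289343 counts, and this depth and the number of mice limit the precision. Per the study's methods the libraries of a group come from separate mice. Whether different tissues came from the same mice is not given in the sources used here, and fits across tissues treated their libraries as independent. In each tissue, genes kept by filterByExpr (minimum count 10) were scaled with TMM and tested with edgeR 4.0.16 (quasi-likelihood F test, R 4.3.3), with Benjamini-Hochberg adjustment over all genes tested and a threshold of 0.05. Members were called on adjusted p alone, and the study's added fold threshold (log2FC of 1), DESeq2 1.42.0, limma 3.58.1 voom with sample weights, other scaling and filters, a replicate block and leaving out each library were alternatives. Tissue differences used interaction terms, and WT tissues were fitted together. Levels per kb used the exon union of GENCODE M21 basic protein-coding transcripts. Scripts were tested on simulated data. The members and lists were chosen with earlier results of these data known, every member may be named, and of the other pathway genes up to 3 of a list with the smallest p among those called are named. The values of 1 of these further genes are not reported here.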

Additional observations from a re-analysis of the deposited data

Results flagged for a closer look

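Of 228 groups of 4 libraries, 1 for each gene, 16 held a library far from the other libraries of its group, where chance alone flags about 1 in 20 groups. Atg9b in Mtm1-/y gastrocnemius was the widest of these, at 18.0 CPM in replicate 3 against 0.242 to 0.512 CPM in the others, and this library also held hair follicle RNA whose part was not tested. In the same group Ulk2 stood at 119 CPM in replicate 2 (others 110), Gabarap at 150 CPM in replicate 1 (others 126 to 130) and Atg10 at 6.98 CPM in replicate 3 (others 8.88 to 9.10). In WT gastrocnemius Atg13 stood at 54.9 CPM in replicate 2 (others 50.6 to 51.0) and Atg2b at 26.3 CPM in replicate 3 (others 27.9 to 28.1). In WT diaphragm Rb1cc1 stood at 111 CPM in replicate 3 (others 80.1 to 85.4), which is the WT library low in Alb. Uvrag at 25.6 CPM (others 21.5 to 22.2), Atg2a at 61.0 CPM (others 47.7 to 48.7) and Nbr1 at 192 CPM (others 169 to 172) were high in WT diaphragm replicate 1. In the heart Gabarapl1 stood at 152 CPM (others 88.4 to 94.8) and Atg10 at 18.3 CPM (others 20.7 to 21.1) in WT replicate 4, and Atg4a at 7.04 CPM (others 8.43 to 8.62) in Mtm1-/y replicate 4. In Mtm1-/y liver Ulk2 stood at 60.8 CPM in replicate 4 (others at most 51.0), and Wdr45 at 33.9 CPM (others 24.9 to 25.9) and Atg4d at 39.8 CPM (others 22.7 to 25.2) in replicate 2. That replicate 2 was also low in summed macrophage markers (46.3 CPM, others 144 to 197) and endothelial markers (66.6 CPM, others 118 to 139). The part of this was not tested.

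The genotype effect differed between tissues by the test of the difference itself in 11 cases. Of all genes tested, 19.8% differed between heart and gastrocnemius and 6.34% between liver and gastrocnemius. On the log2 scale, heart minus gastrocnemius was 0.85 for Ulk2, 0.81 for Atg9a, 0.95 for Optn, 0.39 for Rb1cc1, 0.34 for Map1lc3b, -0.40 for Gabarap and -0.70 for Gabarapl1. Liver minus gastrocnemius was 0.80 for Ulk2, 0.76 for Atg9a, 0.83 for Optn and -0.49 for Gabarap. The liver call for Gabarap and the heart calls for Gabarapl1 and Map1lc3b were lost in some alternatives.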

How the results depend on the processing

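No value past the threshold turned its direction under any alternative run, but small estimates that were not called crossed 0, such as those of Uvrag (-0.03 to 0.14), Atg3 (-0.07 to 0.02), Wipi2 (-0.03 to 0.02) and Atg13 (-0.04 to 0.04) in the gastrocnemius. With the fold threshold added, the counts became 0 higher and 0 lower in gastrocnemius by genotype, and against WT gastrocnemius 2 higher and 1 lower in WT diaphragm, 1 and 7 in WT heart, and 13 and 7 in WT liver. The count of positive differences between heart and gastrocnemius rose from 5 to 9 with DESeq2 size factors and to 10 with DESeq2. The 1 negative difference between liver and gastrocnemius (Gabarap) became 0 with DESeq2 size factors, without the filter on low counts and with the replicate block. The diaphragm libraries low in Alb, chosen after seeing the data, leave 1 WT library, so no count against WT gastrocnemius is given for them. Leaving out 1 library at a time gave 2 to 7 higher in gastrocnemius by genotype, 1 to 3 negative differences between heart and gastrocnemius and 0 to 1 between liver and gastrocnemius. Apart from the gastrocnemius genotype effect with the fold threshold, the share of all genes called was not counted for these alternatives. Whether the shifts in these counts are particular to these genes is therefore not known. In the gastrocnemius Ulk2, Rb1cc1, Atg9a, Optn and Gabarap were called on adjusted p alone in all 14 alternatives, and with all 30 libraries in the fit Gabarapl1, Wipi1 and Atg4d had adjusted p of 0.28, 0.1 and 0.07. In diaphragm, heart and liver 0 of the 38 genes were called by genotype in each alternative, the hepatocyte score as a covariate included, although the diaphragm libraries low in Alb are too few to bear on this. Same-numbered libraries of the genotypes did not deviate together in every pair of any tissue, with correlations of -0.01 to 0.10 in gastrocnemius, -0.69 to 0.51 in diaphragm, -0.59 to 0.31 in heart and -0.01 to 0.42 in liver. Between gastrocnemius and another tissue they ranged from -0.15 to 0.29 (diaphragm), -0.18 to 0.19 (heart) and -0.09 to 0.10 (liver), highest in WT gastrocnemius with diaphragm (0.29, 0.21, -0.00 and 0.12). The numbers were therefore not taken to pair the mice, and with the replicate block 4 genes were higher and 6 lower there. Of the values for single genes, 1751 kept their side of the threshold, 87 fell short of it and 27 passed it newly. These cover all 38 genes for genotype in the gastrocnemius. For WT tissues they cover only genes called in the main run, and elsewhere only genes called in at least 1 setting. They are therefore not shares of all values. The number of mice and the spread between diaphragm libraries limit what could be detected.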
